A study of Mus musculus with 12 samples.

Results

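Inflammatory caspases and the inflammasome genes around them were followed through a mouse model of ZMYM2-FGFR1 disease. The group holds 8 genes, namely Casp1, Casp4, Casp12, Nlrp3, Gsdmd, Pycard, Il18 and Il1b, out of 18193 genes with a named probe set. Where a gene had several probe sets the brightest on average stands for it, and the others are given beside it. The group was chosen by its measured difference between T lymphoma and normal thymocytes, which was known for Casp1 and Casp4, and the other members were listed by name with them. For all members that contrast is therefore described and not read as a test.

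The 12 arrays, 1 per sample, fall into 5 groups. An unsorted cell line, ZNF112, which the labels describe no further, has 1 array. The 4 T lymphoma arrays came from mice carrying the ZMYM2-FGFR1 fusion kinase and GFP, at the third serial transplantation; 3 tumours were unsorted, with most cells GFP+ Thy1+ CD4+CD8+ double-positive (DP), and 1 was sorted for those cells. They stand beside 3 arrays of sorted Thy1+ DP thymocytes from normal BALB/c mice, each from pooled thymuses. The 2 arrays of leukaemia stem cells (LSC) came from GFP+ Lin- Sca-1+ c-kit+ cells of bone marrow or spleen, pooled from ZMYM2-FGFR1 mice, and stand beside 2 arrays of the same surface phenotype from pooled normal BALB/c marrow (HSC). The labels describe 1 of these LSC samples as normal sorted LSC, while the titles of both read leukemia stem cells. The labels call the replicates biological. No ages are given, and no strain for the tumour, LSC or cell line arrays.

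Inflammasomes are protein platforms that form in the cytosol when a sensor such as NLRP3 meets a danger signal. The adaptor ASC, encoded by Pycard, links the sensor to caspase-1, which cuts the precursors of interleukin-1 beta (Il1b) and interleukin-18 (Il18) and frees the pore-forming part of gasdermin D (Gsdmd). Mouse caspase-11, encoded by Casp4, senses bacterial lipopolysaccharide directly and cuts gasdermin D as well. These genes are best known from macrophages and other myeloid cells, where interferons and Toll-like receptor signals raise several of them.

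Values are log2 intensities. Levels cannot be set directly between the T cell side (T lymphoma, DP thymocytes, cell line) and the stem cell side (LSC, HSC), because array medians were 99.5 to 109 on the first and 44.3 to 46.1 on the second; a percentile among the probe sets of the same array is given where both sides are mentioned. A log2 value of 6.33 served as the filter level: a gene was tested if it lay above it in at least 2 arrays. Of the 8 members 7 passed, and Nlrp3, above it in 1 array, was not tested. T cell markers were present where the labels place them, at a summed intensity of 33900 to 57700 in T lymphoma and 88700 to 102000 in DP thymocytes. The cell line had Thy1 at 13.41 but Cd4 and Cd8b1 at 6.88 and 6.19, against 13.02 or more in each DP array. The LSC arrays went partly against their label. In limma 6 of 7 T cell markers were called higher than in HSC. Of 5 stem cell markers tested 3 were called lower (Hlf, Mecom and Meis1) and 2 were not called (Kit and Procr). Over all genes 4.05% were called higher and 6.21% lower. These calls take their spread from all 12 arrays, and 0 of 12797 genes passed with only the LSC and HSC arrays in the fit. Hlf was at 5.37 and 4.77 in LSC, against 10.66 and 11.10 in HSC, while Kit, at 12.31 and 10.99 in LSC, had a difference of 0.43 from HSC. The LSC arrays correlated with each other at 0.795 over genes. LSC 1 correlated at 0.818 to 0.834 with HSC and 0.720 to 0.795 with the lymphomas, and LSC 2 at 0.791 to 0.801 with HSC and 0.869 to 0.897 with the lymphomas.

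**Figure D1:**
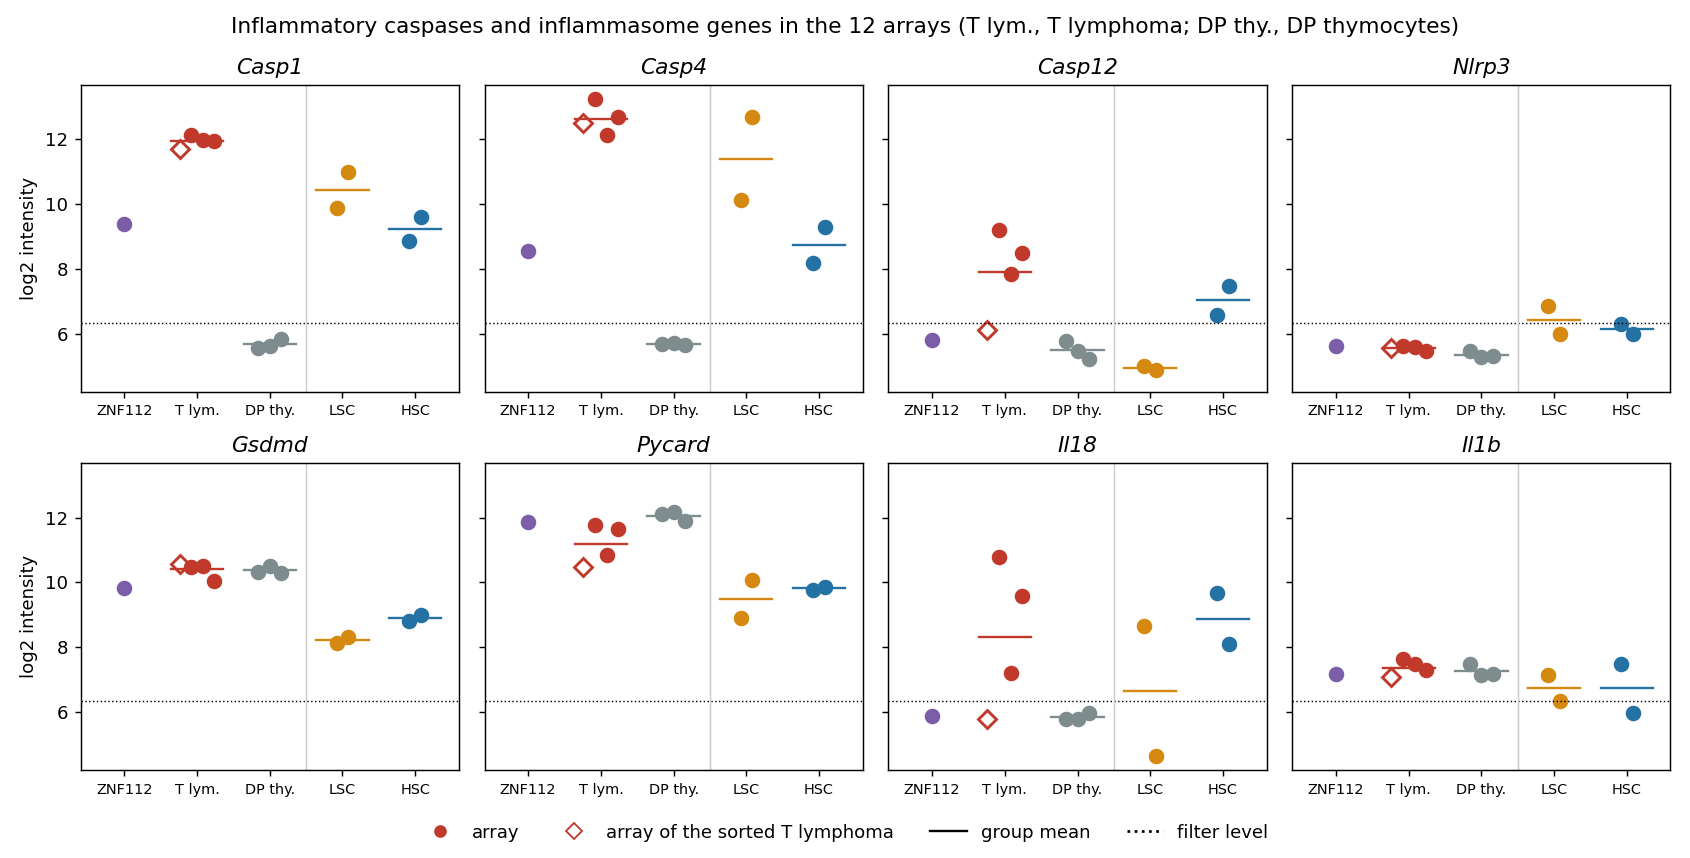
Each panel plots the log2 intensity (y axis) of 1 member in each of the 12 arrays, by group (x axis); filled points are arrays, the open diamond is the sorted T lymphoma, short lines are group means, the dotted line is the filter level of 6.33, and the vertical line parts the T cell side from the stem cell side. Casp1 and Casp4 lie at 11.70 or more in all 4 T lymphomas and at 5.83 or less in all 3 DP arrays, while Casp12 and Il18 are high in the unsorted tumours and at 6.10 and 5.77 in the sorted one.

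Casp1, the caspase that matures both cytokines, was at 11.70 in the sorted T lymphoma and 12.12, 11.98 and 11.95 in the unsorted tumours, against 5.57, 5.63 and 5.83 in DP thymocytes. The 4 tumours lay within a narrow band far above the thymocytes, which were all under the filter level. The difference was 6.26 ± 0.28 (SE of the fit), or 76.6-fold. Casp4 was at 12.50 in the sorted T lymphoma and 13.25, 12.13 and 12.68 in the unsorted tumours, against 5.68, 5.71 and 5.66 in DP thymocytes. Here too no tumour came near a thymocyte array, and the difference was 6.96 ± 0.55, or 124-fold. In the thymocytes both genes lay below the filter level, where a microarray reads background as well as signal, so the folds depend on that floor. Each gene had 1 probe set.

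Casp12, a caspase that neighbours both and is a poor protease in mice, was lower overall and more scattered. It was at 6.10 in the sorted T lymphoma and 9.21, 7.84 and 8.49 in the unsorted tumours, against 5.77, 5.47 and 5.21 in DP thymocytes. The sorted tumour lay closer to the thymocytes than to the other tumours. The difference over all 4 tumours was 2.42 ± 0.62; over the unsorted ones it was 3.03 and in the sorted one 0.61. A further probe set of Casp12 had 5.59 in the sorted tumour and 8.92, 6.92 and 7.94 in the unsorted tumours, against 5.02 to 5.10 in DP thymocytes, the same pattern at lower values.

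The caspase genes lie side by side on mouse chromosome 9, in the order Casp1, Casp4 and Casp12. The bases before their start sites are shown because these neighbours differed in the sorted tumour, where Casp1 and Casp4 stood 6.02 and 6.82 above DP thymocytes and Casp12 0.61. Casp1 and Casp12 were both at their lowest of the 4 lymphomas there, and Casp4 was not. The sequences are the 250 bases before each RefSeq start (build GRCm38.p6, plus strand), at chr9:5298267-5298516 for Casp1, chr9:5308599-5308848 for Casp4 (the first of 2 overlapping starts) and chr9:5345226-5345475 for Casp12. Capitals mark motif matches.
Casp1: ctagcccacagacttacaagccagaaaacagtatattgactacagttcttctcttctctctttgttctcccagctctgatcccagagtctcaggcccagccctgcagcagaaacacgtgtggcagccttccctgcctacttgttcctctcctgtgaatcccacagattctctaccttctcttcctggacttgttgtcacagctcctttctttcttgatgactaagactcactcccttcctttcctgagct
Casp4: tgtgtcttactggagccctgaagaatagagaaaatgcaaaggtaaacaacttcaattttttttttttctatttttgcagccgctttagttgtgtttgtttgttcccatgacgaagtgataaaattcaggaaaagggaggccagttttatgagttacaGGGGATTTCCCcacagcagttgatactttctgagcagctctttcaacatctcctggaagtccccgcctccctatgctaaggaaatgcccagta
Casp12: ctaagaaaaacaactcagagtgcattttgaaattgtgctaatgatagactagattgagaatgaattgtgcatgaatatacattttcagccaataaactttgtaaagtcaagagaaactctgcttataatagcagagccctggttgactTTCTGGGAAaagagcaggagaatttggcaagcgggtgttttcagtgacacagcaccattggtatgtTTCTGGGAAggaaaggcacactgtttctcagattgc

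Motifs searched on both strands were the STAT motif TTCNNNGAA, the core of the interferon-stimulated response element, the NF-kB consensus, the AP-1 motif TGANTCA and the TATA box TATAAA. Among 32851 windows of the same length, 7.02%, 2.98%, 3.90%, 6.75% and 12.4% held them, in that order. The Casp4 window held overlapping NF-kB matches at -93 to -83, and the Casp12 window held STAT matches at -102 to -94 and -36 to -28. The Casp1 window held none of the motifs. A match is a run of letters and not a site shown to be bound. Of the other members, RefSeq windows were held for Nlrp3, Pycard, Il18 and Il1b. Nlrp3 had an NF-kB match at -186 to -177 before the first of its 2 starts and none before the second. The letters of the TATA box matched at -31 to -26 on the gene's own strand in Il1b. In Il18 they matched at -175 to -170, on the opposite strand.

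Between T lymphoma and DP thymocytes the genes around the caspases on chromosome 9 had smaller differences. Casp1 and Casp4 were picked for theirs, so this gap is a description with no test. Of the 5 protein-coding genes on each side, 6 were tested between T lymphoma and DP thymocytes. Dync2h1, a dynein heavy chain, rose by 1.16 (adjusted p in limma = 0.0101). Aasdhppt, Kbtbd3, Msantd4 and Dcun1d5 had differences of 0.01 to 0.36 and Mmp13 of 1.12 that did not pass. Between LSC and HSC, Mmp13 had a difference of 4.98 (adjusted p in limma = 0.137) and the other neighbours tested of 0.01 to 0.57. None of these passed. The caspases had 1.21 (Casp1), 2.66 (Casp4) and -2.08 (Casp12) there. Gria4, the gene next to Casp1, averaged 5.60 in T lymphoma and 5.68 in DP thymocytes, and Pdgfd, next to Casp12, 4.93 and 5.10; neither passed the filter.

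The adaptor and the pore-former were present in normal thymocytes already. Pycard was at 10.48 in the sorted T lymphoma and 11.76, 10.85 and 11.66 in the unsorted tumours, against 12.11, 12.16 and 11.89 in DP thymocytes. All tumours lay below all thymocyte arrays, by 0.87 ± 0.37 in the mean. The 2 other Pycard probe sets lay at 5.13 to 5.49 in every array of the T cell side, under the filter level, and carry no information. Gsdmd was at 10.58 in the sorted T lymphoma and 10.48, 10.50 and 10.05 in the unsorted tumours, against 10.32, 10.51 and 10.28 in DP thymocytes. The groups overlapped, and the difference was 0.03, with an interval of 2 SE from -0.31 to 0.38.

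The sensor and the cytokines were low or scattered. Nlrp3 was at 5.55 in the sorted T lymphoma and 5.61, 5.59 and 5.47 in the unsorted tumours, against 5.46, 5.28 and 5.30 in DP thymocytes, all under the filter level. Il1b was at 7.07 in the sorted T lymphoma and 7.63, 7.47 and 7.31 in the unsorted tumours, against 7.48, 7.14 and 7.18 in DP thymocytes, and the groups overlapped. Its difference was 0.10, with an interval of 2 SE from -0.60 to 0.81. Il18 was at 5.77 in the sorted T lymphoma and 10.77, 7.19 and 9.57 in the unsorted tumours, against 5.78, 5.79 and 5.96 in DP thymocytes. Only the unsorted tumours stood above the thymocytes, by 3.34 in the mean, with the sorted tumour at -0.07.

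Of the 7 members tested, Casp1 and Casp4 were past an adjusted p of 0.05 in this contrast, as were 6.55% of all 12797 genes tested in limma, 3.37% higher and 3.18% lower. The groups did not overlap for 4 members (Casp1, Casp4 and Casp12 higher, Pycard lower), as for 34.4% of all genes, 15.3% higher and 19.1% lower. The median difference was 2.42 over the members tested and -0.02 over all genes. Nothing is read from these counts, since the members were chosen with this contrast known.

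**Figure D2:**
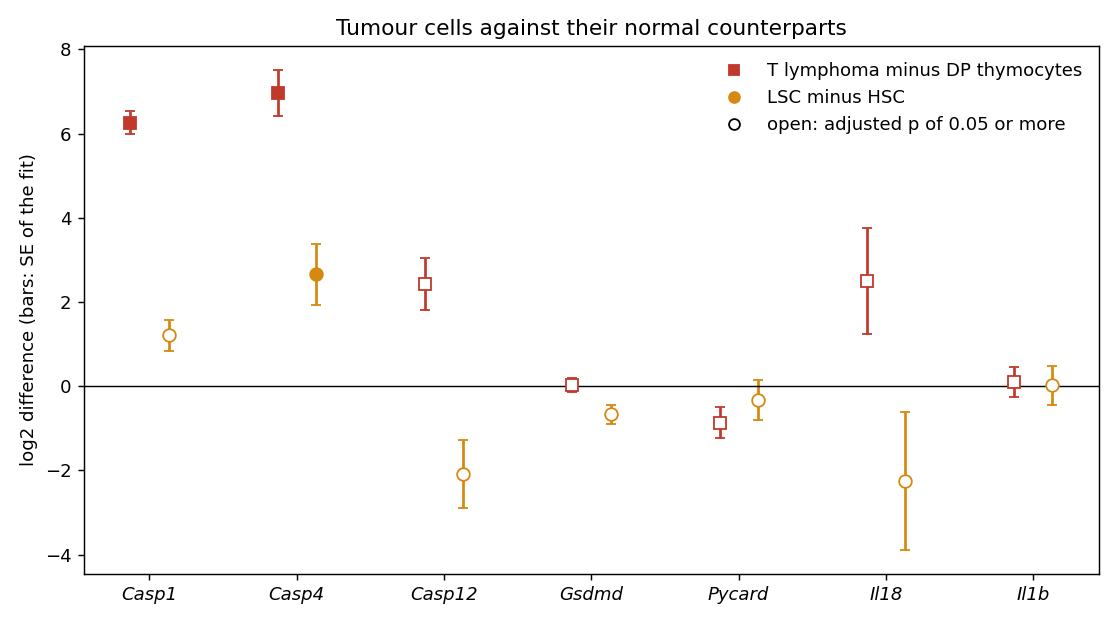
Points are log2 differences (y axis) of the 7 members tested (x axis), squares for T lymphoma minus DP thymocytes and circles for LSC minus HSC, with bars of 1 SE from the limma fit; filled symbols have an adjusted p under 0.05. Casp1 and Casp4 are filled at 6.26 and 6.96 in the first contrast, and Casp4 at 2.66 in the second.

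The sorted tumour was compared with the unsorted ones, a sample the design includes to see whether sorting changes expression. The members differed in size of change. Casp1 and Casp4 had differences of -0.31 ± 0.44 and -0.19 ± 0.87 (sorted minus unsorted), so that they stood 65.1-fold and 113-fold above DP thymocytes in the sorted tumour and 80.9-fold and 128-fold in the unsorted ones. Casp12 and Il18 had differences of -2.42 ± 0.53 and -3.41 ± 1.61 (adjusted p in limma = 0.117 and 0.537). Pycard had a difference of -0.94, Il1b of -0.39 and Gsdmd of 0.24. By limma 0 of 7 passed, against 0.656% of all genes (0.0625% higher, 0.594% lower), and 1 of them, Casp12, had an unadjusted p under 0.05. The sorted tumour lay below every unsorted tumour for 5 of the 7 (Casp1, Casp12, Pycard, Il18 and Il1b) and above every one for Gsdmd; over all genes 26.9% lay below and 35.8% above, 62.7% in all. Only 1 tumour was sorted, assumed to vary like the other groups, so sorting and the tumour itself cannot be told apart. With only the 4 lymphoma arrays in the fit 0 of 12797 genes passed in limma (1281 at an unadjusted p under 0.05).

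Markers of other cells moved between the same arrays. The 13 macrophage markers summed to an intensity of 3760 in the sorted tumour and 28900 to 62900 in the unsorted tumours, with 1540 to 1670 in DP thymocytes. Ctss, at 11.27 in the sorted tumour and 8.09 to 8.38 in DP thymocytes, made up most of the first sum. Csf1r was at 6.54 there and C1qa at 6.68, against 11.47 or more and 11.21 or more in the unsorted tumours. The 8 markers of stroma and endothelium summed to 605 in the sorted tumour and 14200 to 31000 in the unsorted tumours, with 613 to 712 in DP thymocytes. Gene by gene, the sorted tumour stood above every DP array for 4 of the 13 macrophage markers (Cd68, Lyz2, Ctss and Cd14), below every one for 7 and within their range for 2; of the 8 stromal markers 3 were above, 3 below and 2 within. The part of macrophages, stroma and other cells in the values of any member was not tested. In such bulk arrays fewer cells of a type and less RNA per cell cannot be told apart. Dendritic cell markers (7 genes) summed to 4400 in the sorted tumour and 8450 to 10800 in the unsorted tumours, with 1020 to 1100 in DP thymocytes. The sum of the sorted tumour stood 2.07 above thymocytes on the log2 scale. Ccr7, at 11.89 in the sorted tumour and 6.75 to 7.03 in DP thymocytes, made up most of it. Of these 7 genes the sorted tumour stood above every DP array for 3 (Zbtb46, Siglech and Ccr7). It stood below every one for 3 (Itgax, H2-Aa and H2-Ab1) and within their range for 1. NK cell markers (5), which include Gzma, a gene T cells also use, summed to 23300 in the sorted tumour and 19800 to 68700 in the unsorted tumours, with 1850 to 2160 in DP thymocytes. Granulocyte markers (7) summed to 522 in the sorted tumour and 808 to 3450 in the unsorted tumours, with 398 to 426 in DP thymocytes. B cell markers (4) summed to 267 in the sorted tumour and 298 to 4280 in the unsorted tumours, with 493 to 553 in DP thymocytes.

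**Figure D3:**
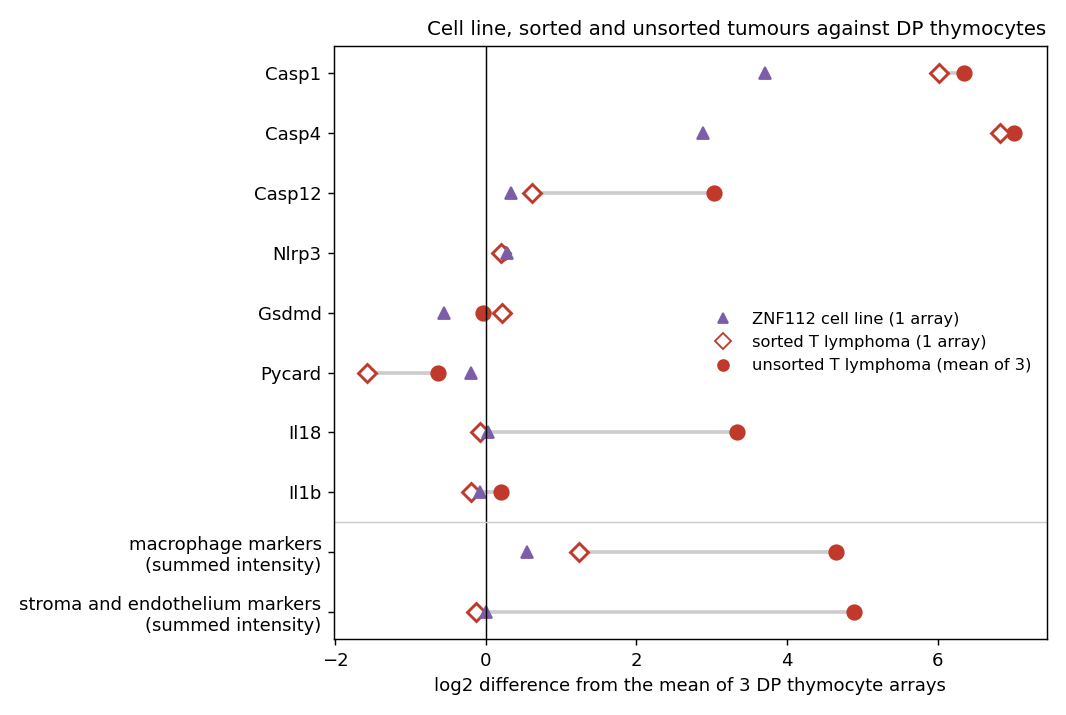
Points are log2 differences from the mean of the 3 DP thymocyte arrays (x axis) for the 8 members and for the summed intensity of 2 marker lists (y axis); triangles are the ZNF112 cell line, open diamonds the sorted T lymphoma and filled circles the mean of the 3 unsorted tumours, joined to the sorted one by a grey line. Casp1 and Casp4 stay at 6.02 and 6.82 in the sorted tumour, while Casp12 and Il18 lie at 0.61 and -0.07 there, and the summed macrophage and stromal markers at 1.24 and -0.13.

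The ZNF112 cell line was set against the tumours, since it is the only cultured sample. Casp1 was at 9.39 in the cell line, 11.70 in the sorted tumour and 11.95 to 12.12 in the unsorted ones, a difference of -2.55 ± 0.42. Casp4 was at 8.56 in the cell line, against 12.13 to 13.25 in the 4 tumours, a difference of -4.08 ± 0.81. Both genes were picked for being high in these same tumours, so their differences from the line are a description with no test. Both still lay above DP thymocytes in the line, by 3.71 and 2.88. Casp12 at 5.82, Il18 at 5.87 and Nlrp3 at 5.63 were under the filter level in the cell line. Pycard at 11.86, Gsdmd at 9.82 and Il1b at 7.18 had differences from T lymphoma of 0.67, -0.58 and -0.18, none of which passed. Of 7 members 1, Casp1, was past the threshold (adjusted p in limma = 0.0254, not independent of its choice), as were 1.16% of all genes (0.539% higher, 0.617% lower). The line is 1 array, assumed to vary like the other groups. The Casp1 call was lost without T lymphoma 1 or 2 (adjusted p in limma = 0.0509 and 0.0667), with only these arrays in the fit (0.113) and with the sorted tumour alone as T lymphoma (0.184).

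LSC were compared with HSC, normal cells sorted by the same markers, a contrast in which Casp4 rose and Casp1 did not pass the test. Casp4 was at 10.12 and 12.69 in LSC, against 8.19 and 9.29 in HSC. Both LSC arrays lay above both HSC arrays, with LSC 2 well above LSC 1, and the difference was 2.66 ± 0.72, or 6.33-fold (adjusted p in limma = 0.0475). Casp1 was at 9.87 and 10.99 in LSC, against 8.85 and 9.59 in HSC, a difference of 1.21 ± 0.37 that did not pass (adjusted p in limma = 0.0703). Unlike the DP arrays, the HSC arrays held both genes well above the filter level. Casp1 averaged the 87.2th percentile of HSC arrays and the 31.5th of DP arrays, and Casp4 the 83.4th and the 31.7th. The HSC arrays also held granulocyte markers (7 genes), which summed to 32500 to 33200 there and 1070 to 11600 in LSC. Their part in the caspase values was not tested.

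The Casp4 call is a borderline one. It was lost in 8 of 15 alternatives, with adjusted p-values from 0.00171 to 0.433 over them. Without LSC 2 the difference was 1.38 (adjusted p in limma = 0.0882) and without LSC 1 it was 3.95 (0.00171). Without LSC 1, Casp1 was called as well, at 1.78 (0.00741), and without LSC 2 it was at 0.65 (0.193). T cell markers (7 genes) summed to 2970 in LSC 1 and 19600 in LSC 2, against 326 to 632 in HSC; their part in the caspase values was not tested. The 3' over 5' signal ratio of beta-actin, which rises as RNA or amplified product shortens, was 13.6 and 9.82 in LSC, against 5.79 and 3.91 in HSC, and its part was not tested either.

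The other members did not pass between LSC and HSC. Casp12 was at 4.99 and 4.89 in LSC, against 6.59 and 7.46 in HSC, a difference of -2.08 ± 0.81 (adjusted p in limma = 0.144) with both LSC arrays under the filter level. Gsdmd was at 8.13 and 8.31 in LSC, against 8.80 and 8.98 in HSC, a small gap without overlap (-0.67 ± 0.22; adjusted p in limma = 0.0947). Il18 was at 8.65 and 4.64 in LSC, against 9.67 and 8.09 in HSC. LSC 2 stood far below the other arrays, and the difference of -2.24 ± 1.64 did not pass. In the same arrays macrophage markers summed to 29800 in LSC 1 and 4350 in LSC 2, against 35600 in HSC 1 and 6390 in HSC 2; their part in the Il18 values was not tested.

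Pycard was at 8.89 and 10.08 in LSC, against 9.76 and 9.87 in HSC, and Il1b at 7.15 and 6.35 in LSC, against 7.49 and 5.96 in HSC. Both overlapped between the groups, with differences of -0.33 ± 0.48 and 0.02 ± 0.46. Nlrp3 was at 6.84 and 5.99 in LSC, against 6.15 ± 0.21 in HSC (SD, n = 2), around the filter level. That level is a median over both sides and so cuts higher among stem cell side arrays. By percentile within its array Nlrp3 averaged 62.9 in LSC and 58.7 in HSC, against 28.2 in T lymphoma and 23.0 in DP thymocytes. Of 7 members tested 1 was called, as were 10.3% of all genes (4.05% higher, 6.21% lower), so the share of members called (14.3%) is close to that of all genes. The groups did not overlap for 4 members, Casp1 and Casp4 higher and Casp12 and Gsdmd lower, as for 43.0% of all genes, 20.5% higher and 22.5% lower. For the difference between the tumour contrasts, T lymphoma minus DP thymocytes less LSC minus HSC, 3 of 7 members were called, Casp1, Casp4 and Casp12, all higher, as were 8.88% of all genes (5.28% higher, 3.59% lower). It shares the arrays on which Casp1 and Casp4 were picked, so nothing is read from that count.

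Other genes of the pathway were described in 6 lists between the same groups, T lymphoma against DP thymocytes and LSC against HSC. Among the inflammasome sensors and regulators 8 of 15 were tested and 0 passed in either contrast (limma; 2 at an unadjusted p under 0.05 in each). P2rx7, an ATP-gated channel that can trigger NLRP3, had differences of 2.22 in T lymphoma and 2.06 in LSC (adjusted p in limma = 0.0930 and 0.185). Naip5, a sensor of bacterial flagellin, had a difference of 1.53 in T lymphoma, and Naip2 of -1.69 in LSC. The other caspases, of which 5 of 7 were tested, also had 0 calls (limma; 0 and 1 at an unadjusted p under 0.05), with differences of 0.66 for Casp8, the initiator of death receptor signalling, and -0.34 for Casp2 in T lymphoma, and of 1.40 for Casp6 and -0.59 for Casp2 in LSC. Of the gasdermins and the membrane rupture gene Ninj1, 2 of 4 were tested with 0 calls (limma; 1 and 0 at an unadjusted p under 0.05): Ninj1 had differences of 1.81 in T lymphoma and -0.71 in LSC, and Gsdme of -0.73 and -0.70.

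Receptors and signalling genes of the interleukin-1 family moved in part. Of 11 tested, 3 rose and 0 fell in T lymphoma, where 3.37% of all genes rose. They were Il18r1, the interleukin-18 receptor (2.55 ± 0.61), Il18bp, the soluble inhibitor of interleukin-18 (2.08 ± 0.48), and the adaptor Myd88 (1.32 ± 0.31), with adjusted p-values of 0.0388, 0.0356 and 0.0366 (limma, Benjamini-Hochberg). Il18r1 was at 7.17 in the sorted tumour and 7.33 to 9.24 in the unsorted tumours, against 5.13 to 5.52 in DP thymocytes. In LSC it rose by 3.61 ± 0.80 (adjusted p in limma = 0.0224), the only call of 11. It was at 11.21 and 8.83 in LSC against 6.52 and 6.30 in HSC. That call was lost with only the LSC and HSC arrays in the fit, where 0 of 12797 genes passed in limma. Il33 was at 4.84 in the sorted tumour, against 10.05 to 11.21 in the unsorted ones, and fell there by 5.68 on the log2 scale (adjusted p in limma = 0.00211), as did the receptor Il1r1 by 2.79 (0.0245). Both calls take their spread from the other groups and were lost with only the 4 lymphoma arrays in the fit (adjusted p in limma = 0.148 and 0.221).

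Genes that are known to induce inflammatory caspases included several that rose. Of 15 tested, 4 rose and 0 fell in T lymphoma, where 3.37% of all genes rose and 3.18% fell: Tlr2, a receptor of bacterial lipoproteins (2.43 ± 0.33), the interferon response factors Irf1 (2.07 ± 0.35) and Irf9 (1.66 ± 0.30), and the interferon receptor chain Ifnar2 (1.45 ± 0.27). Irf1 was at 13.39 in the sorted tumour and 12.78 to 13.31 in the unsorted tumours, against 11.04 to 11.16 in DP thymocytes. In LSC 2 of 15 rose, Ifng (8.85 ± 1.66) and its receptor chain Ifngr1 (1.76 ± 0.46), where 4.05% of all genes rose. Ifng was at 12.80 and 12.46 in LSC, against 3.76 and 3.79 in HSC. Both LSC calls take their spread from all 12 arrays and were lost with only the LSC and HSC arrays in the fit. In the tumours Ifng, which encodes interferon gamma, was at 6.55 in the sorted tumour and 13.37, 9.34 and 8.30 in the unsorted tumours, against 5.19 to 5.28 in DP thymocytes; that difference of 4.15 did not pass.

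The interferon-inducible GTPases, which act with caspase-11 against bacteria in the cytosol, rose for the most part in both comparisons. Of 9 tested, 7 rose and 0 fell in T lymphoma, led by Iigp1 (6.88 ± 0.45), Gbp3 (4.18 ± 0.31), Gbp6 (3.85 ± 0.50) and Irgm1 (2.50 ± 0.25), with a median of 2.43 against -0.02 over all genes, of which 3.37% rose. In LSC 6 of 9 rose, led by Gbp8 (3.21 ± 0.46), Gbp3 (2.81 ± 0.41), Gbp2 (2.67 ± 0.69) and Gbp6 (2.45 ± 0.66), with a median of 2.33 against -0.03 over all genes, of which 4.05% rose. The LSC calls here, too, take their spread from all 12 arrays, and none held with only the LSC and HSC arrays in the fit. Gbp3 was at 13.72 in the sorted tumour and 12.50 to 13.13 in the unsorted tumours, against 8.85 to 9.01 in DP thymocytes. In the cell line 0 of 9 passed against T lymphoma, where 1.16% of all genes did (limma; 1 of the 9 at an unadjusted p under 0.05), with Gbp3 at 13.01 and Iigp1 at 13.79 there.

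**Figure D4:**
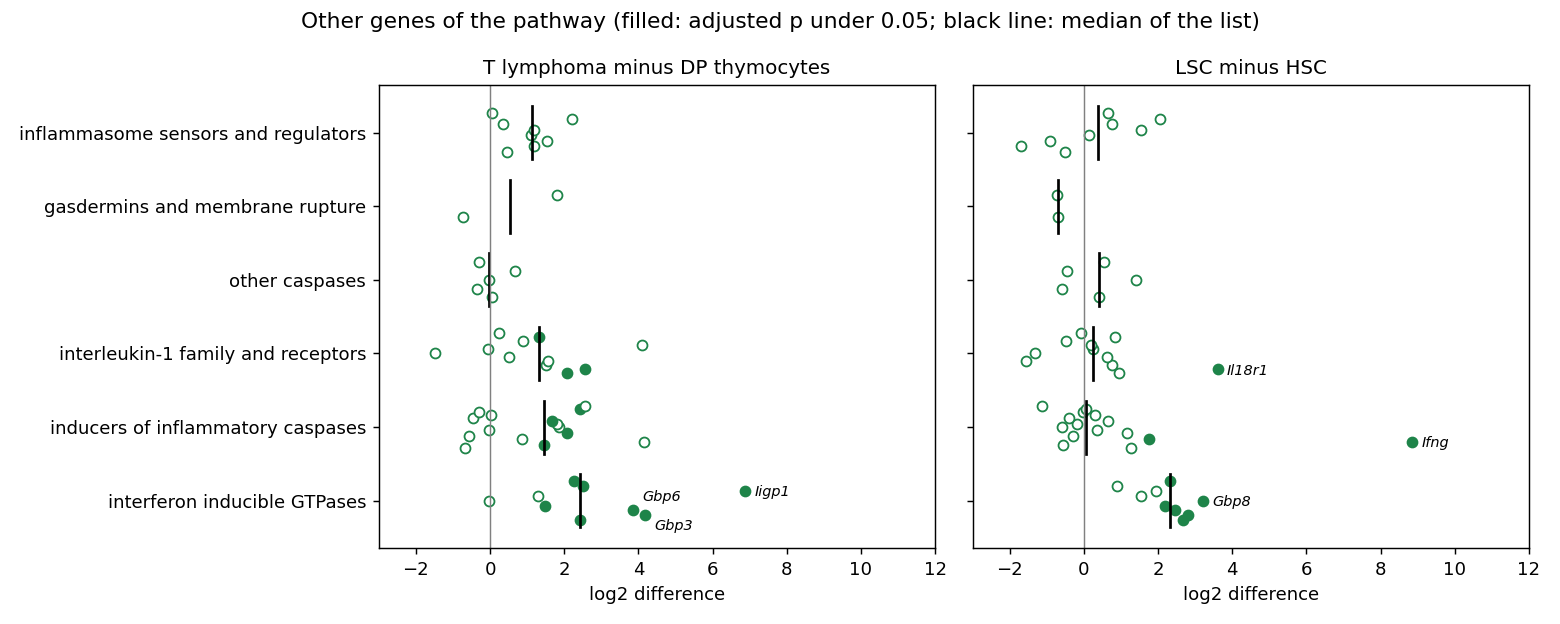
Each point is the log2 difference (x axis) of 1 gene of 6 pathway lists (y axis), with T lymphoma minus DP thymocytes on the left and LSC minus HSC on the right; filled points have an adjusted p under 0.05 and black lines are list medians. The GTPases hold 7 and 6 filled points of 9, and the other caspases, the sensors and the gasdermin list hold 0.

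The genes whose levels followed Casp1 and Casp4 most closely were ranked by Pearson correlation over the 8 arrays of the T cell side, which share the step between normal and tumour arrays; the values are a description. For Casp1 they were Eipr1 (0.996), Prelid2 (0.992), Cyp20a1 (0.989), Casp4 (0.989) and Cpq (0.988). For Casp4 they were Vwa5a (0.997), Trgv4 (0.996), Atp10d (0.992), Tm6sf1 (0.990) and Vcan (0.990). Trgv4, a T cell receptor gamma variable segment, averaged 13.83 in T lymphoma and 5.49 in DP thymocytes and was at 8.56 in the cell line.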

How the data were processed

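Expression was measured on 12 Affymetrix Mouse430 2.0 arrays. The deposited series table holds linear intensities for 45101 probe sets, made with RMA per the submitters' processing notes, with no version or detection calls given. Platform annotation gave 1 symbol to 34945 probe sets, several to 932 and none to 9160, besides 64 controls. Intensities were taken to log2. For each of 18193 genes the brightest probe set on average was used, and 12797 genes above an intensity of 80.2 (the median) in at least 2 arrays were tested in R 4.3.3 by limma 3.58.1 (a linear model over 5 groups with moderated variances, Benjamini-Hochberg over all genes, call at 0.05, two-sided). The sorted tumour was set apart in its own fit. The fit of T lymphoma minus DP thymocytes was also run on simulated arrays. These had the same spread in every group, so the run does not cover the unequal spread of the real groups or the other contrasts. Precision is limited by how few arrays there are.

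The members and gene lists were chosen with earlier results of these data known. All members were named. From each other list and contrast the text names called genes with the 4 largest differences, or the 2 largest where none was called, and for Casp1 and Casp4 the 5 genes most alike; further genes, such as single markers and the neighbours on chromosome 9, were chosen after their values were seen. Alternatives covered the arrays in the fit, the filter, an offset, quantile normalization, probe sets, the variance model, single arrays, the sorted tumour and the replicate number.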

Additional observations from a re-analysis of the deposited data

Results flagged for a closer look

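The difference between the tumour contrasts (T lymphoma minus DP thymocytes, less LSC minus HSC) was tested as an interaction for all 12797 genes, of which 8.88% passed. It was 5.05 ± 0.47 for Casp1, 4.30 ± 0.91 for Casp4 and 4.51 ± 1.02 for Casp12 on the log2 scale, with adjusted p-values of 0.000642, 0.0226 and 0.0292 (limma, Benjamini-Hochberg). Casp1 and Casp4 had positive differences in both tumour contrasts, larger in T lymphoma. In LSC that of Casp1 did not pass (adjusted p in limma = 0.0703) and the Casp4 call was borderline. The normal groups started at different levels. By percentile, Casp1 averaged 95.4 in T lymphoma and 93.2 in LSC, against 31.5 in DP thymocytes and 87.2 in HSC. Casp4 averaged 97.5 and 95.5, against 31.7 and 83.4. The part of these starting levels in the interaction was not tested. For Casp12 the contrasts had opposite signs, 2.42 in T lymphoma and -2.08 in LSC. These values share the T lymphoma and DP arrays on which Casp1 and Casp4 were picked and are not independent of that choice. The second probe set of Casp12 gave 3.76 (limma, Benjamini-Hochberg adjusted p = 0.0662). With the sorted tumour alone as T lymphoma, Casp1 was the only one of them still past the threshold.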

How the results depend on the processing

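The direction of called members was kept under every alternative run. Casp1 and Casp4 were picked on T lymphoma minus DP thymocytes, so their refits there describe the same arrays and are no test. Casp1 and Casp4 stayed past the threshold between T lymphoma and DP thymocytes in 20 of 20 alternatives, at 5.87 to 6.34 and 6.57 to 7.13, while Casp12 passed in 7, at 0.61 to 3.03. Members called in that contrast numbered 2, against 5 with array weights, 4 with the replicate block and 2 to 3 without single arrays. Between LSC and HSC 1 was called, against 0 with the contrast's own arrays, no filter, an offset of 16, array weights or the replicate block, and 0 to 2 without single arrays. Between cell line and T lymphoma 1 was called, against 0 with the contrast's own arrays or only the sorted tumour, 2 with a filter in 4 arrays, either quantile normalization, array weights or no sorted tumour, and 0 to 2 without single arrays. Between sorted and unsorted tumours 0 were called (limma, 1 at an unadjusted p under 0.05), and 0 to 1 without single arrays, the 1 being Casp12 without T lymphoma 2 (-2.75). For the difference of the tumour contrasts 3 were called, against 1 with only the sorted tumour and 1 to 3 without single arrays; without any 1 of the DP arrays, or without HSC 2, only Casp1 remained. The cause of these shifts was not tested. Same-numbered arrays correlated in their deviations at 0.0333, -0.0674 and -0.00112 (T lymphoma and DP) and 0.0983 (LSC and HSC). With 2 arrays in a group the last value is the same for either number by construction. Such correlations cannot tell whether the numbers pair samples. The block could not be fitted for the cell line or the sorted tumour, nor the sorted contrast without its tumour. Over all genes, calls ranged from 320 to 3531 around 838 in T lymphoma and from 0 to 2716 around 1313 in LSC. Genes near background, such as Casp1 and Casp4 in thymocytes, have folds limited by that floor.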

Other observations

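LSC 1 and LSC 2 lay further apart than the HSC arrays did for Casp4, Il18, Pycard, Casp1 and Nlrp3. They lay closer together for Casp12 and Il1b, and about as far apart for Gsdmd. Over all genes tested, too, the LSC arrays lay further apart, with a root mean square SD of 1.02 against 0.554 in HSC. LSC 2 minus LSC 1 was 2.56 for Casp4, -4.01 for Il18, 1.19 for Pycard, 1.13 for Casp1 and -0.85 for Nlrp3. Against the mean of HSC, Casp4 stood at 1.38 in LSC 1 and 3.95 in LSC 2, and Il18 at -0.23 in LSC 1 and -4.24 in LSC 2.

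NK cell markers, which include Gzma, summed to 43600 in the ZNF112 cell line, 23300 in the sorted tumour and 19800 to 68700 in the unsorted tumours, with 1850 to 2160 in DP thymocytes. Gzma alone was at 15.03 in the cell line and 14.47 in the sorted tumour, against 10.46 to 10.75 in DP thymocytes.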
